A study of Mus musculus with 6 samples.

Results

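The replication-dependent histone genes supply the bulk of the histone protein that packages newly copied DNA. They were taken here as every mouse gene whose symbol begins with H2ac, H2bc, H3c or H4c, together with the linker histone genes H1-1 to H1-5, which the RefSeq table spells H1f1 to H1f5. The rule found 59 such genes among the 16749 genes listed in at least 1 of 6 RNA-seq libraries. They comprised 5 H1, 16 H2A, 16 H2B, 11 H3 and 11 H4 genes. Of these, 51 lay on chromosome 13 between positions 21715711 and 23934913 and 8 on chromosome 3 between 96219885 and 96270192 (RefSeq, GRCm38.p6). A further 5 genes of the RefSeq table that fit the rule, H2ac19, H3c14, H4c18 and the pseudogenes H2ac14 and H2ac5-ps, were listed in no library.

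The libraries were made from total RNA of flow-sorted CD8+ T cells from the tissue that the labels abbreviate as iLN, in C57BL/6 mice that, by the series title, carried tumors and had been given oxaliplatin, a platinum drug that damages DNA. The knockout group (3 libraries) had the genotype Cd4creId2f/f, and the WT group (3 libraries) had Id2f/f, the same floxed alleles without Cre. Cd4-driven Cre is active from a thymocyte stage that CD4 and CD8 T cells share, so it is not limited to CD8+ T cells. Id2 inhibits the E protein transcription factors. Since no WT mouse carried Cre, the presence of Cre and the loss of Id2 cannot be told apart. The p-values set the difference between groups against how far the samples of a group differ. No animals are named in the labels, so that spread may be technical.

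In animals these genes are transcribed almost only in S phase, when DNA is copied, and they have no introns. Their mRNAs end in a conserved stem-loop in place of a poly(A) tail. The stem-loop binding protein, Slbp, holds that hairpin and guides the cut of the 3′ end, the export, the translation and the decay of the message. H2A, H2B, H3 and H4 form the nucleosome core, and H1 binds the linker DNA between nucleosomes. The labels do not say whether the libraries were selected for poly(A) RNA.

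The hairpin could be read in 37 of the 59 genes, as 16 bases after the stop codon with a stem of 6 base pairs and a loop of 4 bases, in GENCODE M21 transcripts (GRCm38). Of the other 22 genes, 18 have a transcript model that ends within 60 bases of the coding sequence, such as that of H1f5, so the absence of these letters there says nothing of the mRNA. The commonest letters, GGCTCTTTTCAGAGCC, stood in 22 genes. The lines below show the hairpin (capitals) with the 14 bases before it, in RNA sense. They cover 5 of the genes that fell in knockout cells, H2ac6, which rose, and some abundant genes that were not called. They are shown because the bases before the hairpin set 1 pair of genes apart. Of the 7 genes with a readable hairpin that fell, H2bc12 and H3c15 are not shown, and each has 5 adenines in those 14 bases. H4c4, abundant and not called, has 9 and is not shown either.

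H2ac23: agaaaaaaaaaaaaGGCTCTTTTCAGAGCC
H2ac24: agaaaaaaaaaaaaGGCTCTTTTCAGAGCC
H2ac8: gtaaaaaaaacaaaGGCTCTTTTCAGAGCC
H2ac4: ttaaccaaaacaaaGGCTCTTTTCAGAGCC
H3c3: gctatttaaaaaaaGGCTCTTTTAAGAGCC
H2ac6: acttcaaacccaaaGGCTCTTTTCAGAGCC
H2ac18: cgagctcctaaaaaGGCTCTTTTCAGAGCC
H1f2: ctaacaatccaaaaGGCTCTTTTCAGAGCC
H4c17: ctttctcaactaaaGGCCCTTTTCAGGGCC

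H2ac23 and H2ac24 have an uninterrupted run of 12 adenines directly before the hairpin. The next longest run was 7, in H3c3, and the median over the 37 genes was 3. The sequences of H2ac23 and H2ac24 are identical over all 390 coding bases and over the 447 bases from the start codon to the end of the hairpin. Reads within that stretch cannot be told apart, so the 2 genes are also given as a sum.

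Id2 checked the labels. It had 1.67, 2.64 and 2.12 FPKM (fragments scaled by transcript length and library size) in the knockout libraries, against 370.98, 146.76 and 149.01 FPKM in the WT libraries, with no overlap. Each library held between 7699181 and 8495123 expected counts, the read numbers that RSEM gives after dividing reads that match several genes. The histone genes took between 0.0247% and 0.0345% of those counts in knockout libraries and between 0.0482% and 0.0591% in WT libraries. Of 8 markers of the sorted type none was called. Cd8a had 214 ± 17.8 FPKM in knockout and 212 ± 10.9 FPKM in WT libraries (SD, n = 3 each). The summed level of 14 B cell markers was 671, 2857 and 602 FPKM in the knockout libraries and 899, 3003 and 3500 FPKM in the WT libraries, so knockout library 2 and WT libraries 2 and 3 were high. Of 14 B cell markers only Pax5 was at 0 in any library, knockout library 1. Dendritic cell markers (5 genes) summed to 3.45, 6.73 and 4.77 FPKM in the knockout libraries and 20.6, 12.7 and 12.8 FPKM in the WT libraries, with Flt3 at 0 in knockout library 1, and Itgax and Zbtb46 were called lower. Xcr1, the other dendritic cell marker tested, was not called (log2 fold change -0.10). Plasma cell markers (6 genes, none at 0 in any library) summed to 92.3, 110 and 93.2 FPKM in the knockout libraries and 106, 125 and 124 FPKM in the WT libraries, and Prdm1 and Jchain were called lower. These sums overlapped between groups, and Sdc1, Xbp1, Irf4 and Mzb1 were not called. Erythroid markers (4 genes, none tested) summed to 10.67, 0 and 12.33 FPKM in the knockout libraries and 0, 0.34 and 0.2 FPKM in the WT libraries. Myeloid markers (6 genes, 3 tested, none called) summed to 28.12, 32.85 and 29.18 FPKM in the knockout libraries and 38.97, 22.58 and 21.74 FPKM in the WT libraries. The part of dendritic, plasma, myeloid and erythroid cells in the histone levels was not tested. Which cells made these marker RNAs, the sorted CD8+ T cells or others, was not tested either. In bulk RNA, fewer cells of a type and less RNA per cell cannot be told apart.

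Summed over the 59 genes, histone RNA was lower in every knockout library than in every WT library. The sum was 667, 511 and 717 FPKM in the knockout libraries, against 983, 1011 and 1236 FPKM in the WT libraries, a ratio of means of 0.587. The difference lay in H2ac23 and H2ac24. Together they had 82.8, 116 and 86.8 FPKM in the knockout libraries, against 488, 515 and 779 FPKM in the WT libraries, a ratio of 0.160. They made up between 12.1% and 22.6% of the histone FPKM in knockout libraries and between 49.6% and 63.0% in WT libraries. Without them, the other 57 genes summed to 537 ± 124 FPKM in knockout and 483 ± 22.4 FPKM in WT libraries (SD, n = 3 each), and the groups overlapped.

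By class, the H2A sum was 237 ± 11.3 FPKM in knockout and 708 ± 150 FPKM in WT libraries. With H2ac23 and H2ac24 set aside, a choice made after their values were seen, the H2A sum was 142 ± 19.7 FPKM in knockout and 114 ± 22.7 FPKM in WT libraries. The H2B sum was 50.2 ± 10.4 FPKM in knockout and 66.2 ± 10.9 FPKM in WT libraries. The H3 sum was 31.7 ± 10.9 FPKM in knockout and 33.6 ± 6.17 FPKM in WT libraries. The H4 sum was 243 ± 65.4 FPKM in knockout and 206 ± 18.3 FPKM in WT libraries, and the H1 sum was 70.2 ± 20.9 FPKM in knockout and 62.7 ± 17.2 FPKM in WT libraries (SD, n = 3 each). Among these sums the full H2A sum was the only one whose groups did not overlap; with the genes of older histone names added, described last, the H2B groups did not overlap either.

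**Figure D1:**
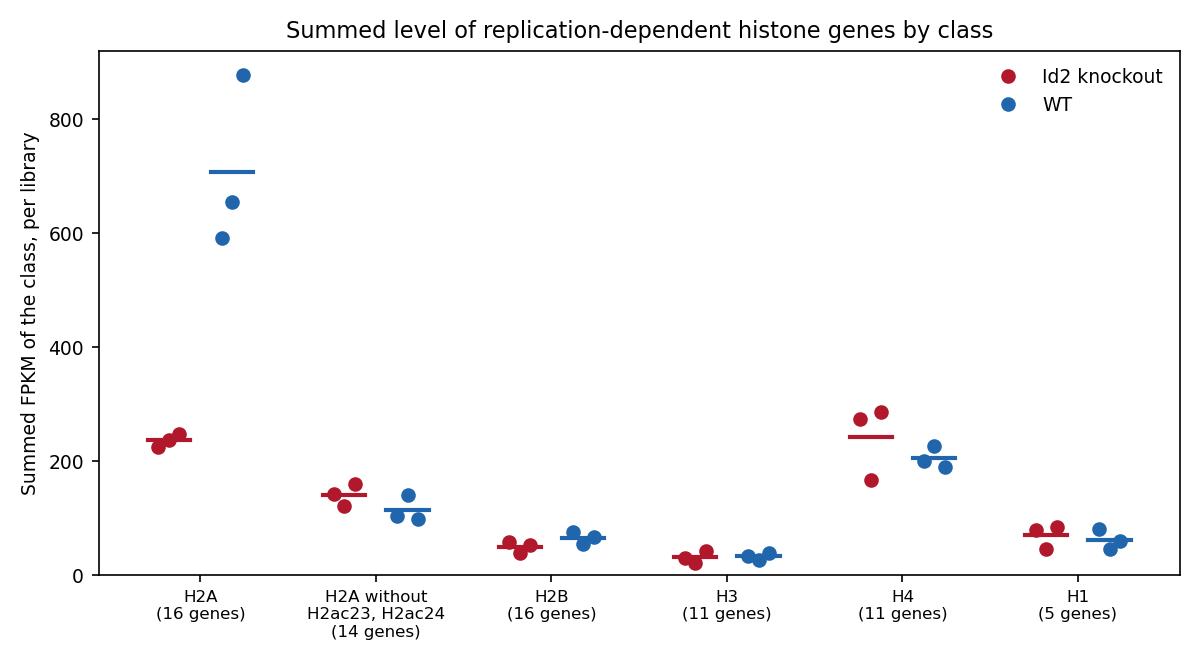
Summed FPKM of each histone class (vertical axis, linear) in the 3 Id2 knockout libraries (red, left) and the 3 WT libraries (blue, right); points are libraries and bars are means. The H2A sum is 237 FPKM in knockout and 708 FPKM in WT libraries, and the groups overlap in the other classes and in H2A without H2ac23 and H2ac24.

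Of the 59 genes, 46 had at least 1 FPKM in at least 3 libraries and were tested with edgeR across 10890 genes. A gene was called at a Benjamini-Hochberg adjusted p below 0.05. In knockout cells 2 histone genes rose and 9 fell. Across all tested genes 11.9% were called, 3.14% higher and 8.77% lower; among the 46 histone genes 23.9% were called, 4.35% higher and 19.6% lower. At an unadjusted edgeR p below 0.05, 19 of the 46 passed, namely 1 H1, 6 H2A, 3 H2B, 5 H3 and 4 H4 genes. The share of all tested genes at that unadjusted threshold was not counted, so the 19 have no background beside them. The median log2 fold change of the 46 was 0.08, beside 0.01 over all tested genes. Of the 46, 3 (H2ac4, H3c3 and H3c15) passed the filter through the WT libraries only and all 3 are among the 9 that fell, so these shares describe the genes tested and not the whole family. In a fit without the filter, all 59 genes entered, 2 rose and 8 fell, beside 9.29% of all genes called there (2.57% higher and 6.72% lower), with a median of -0.04.

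**Figure D2:**
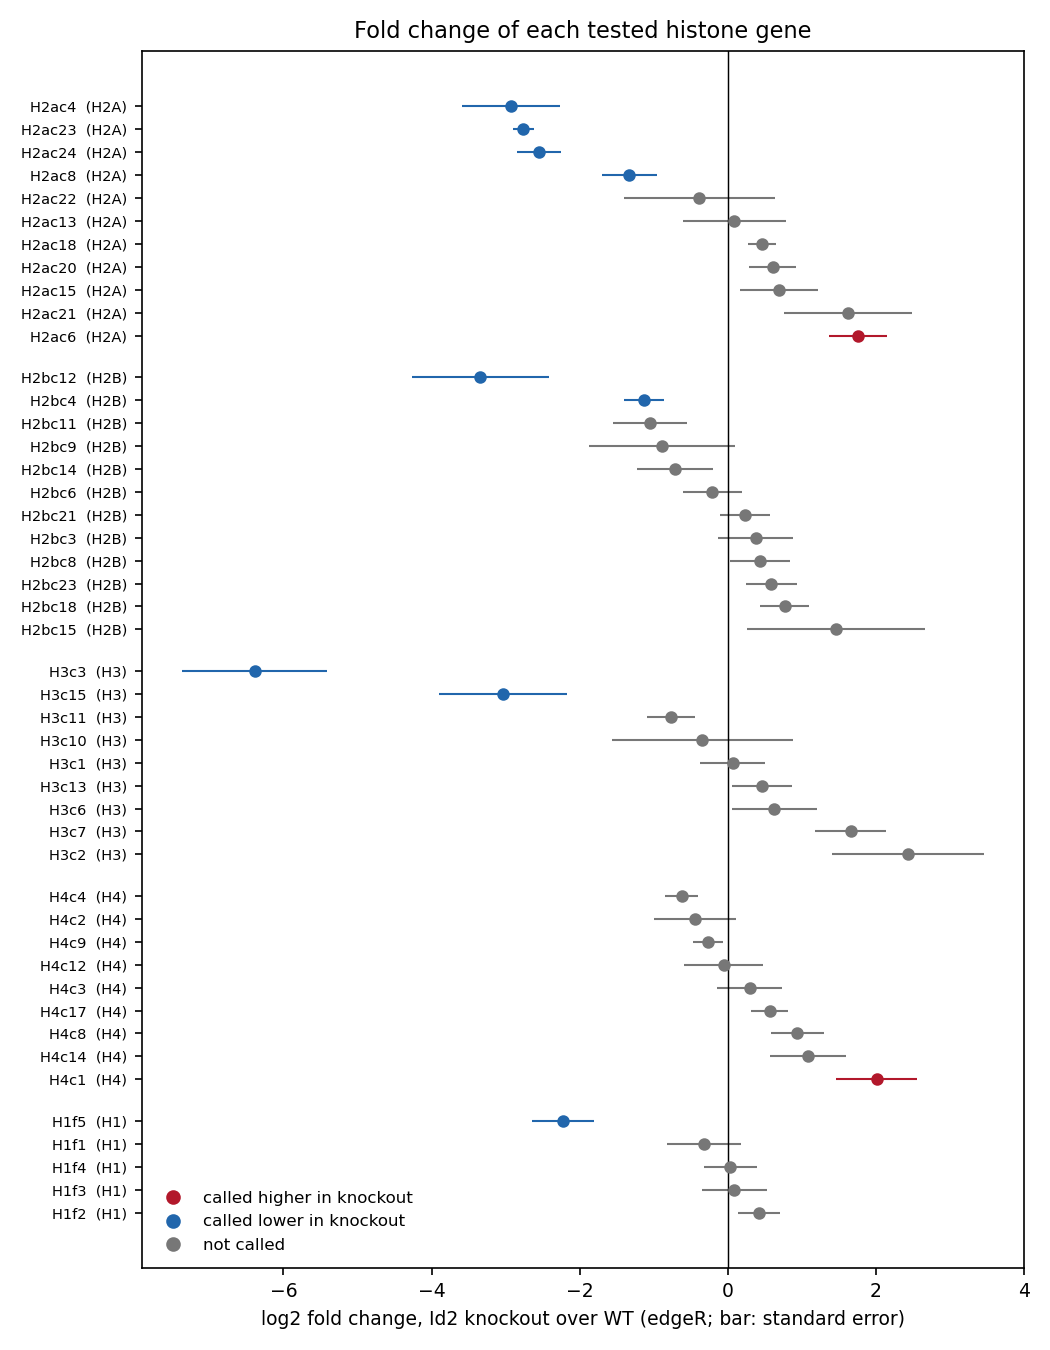
Log2 fold change of each of the 46 tested histone genes, Id2 knockout over WT (horizontal axis; points are edgeR estimates and bars standard errors), grouped by class. The 9 genes called lower (blue) lie in the H2A, H2B, H3 and H1 classes, and the 2 called higher (red) are H2ac6 and H4c1; the estimate of H3c3, listed at 0 in every knockout library, depends on the fit.

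The H2A genes held the most calls of any class, 4 lower and 1 higher of 11 tested. H2ac23 had 51.5, 51.0 and 41.7 FPKM in the knockout libraries, against 298, 288 and 382 FPKM in the WT libraries. All 3 knockout libraries were far below all 3 WT libraries, and the log2 fold change was -2.76 (SE 0.142, edgeR adjusted p = 1.79e-05). H2ac24 had 31.3, 64.6 and 45.1 FPKM in the knockout libraries, against 190, 227 and 397 FPKM in the WT libraries. It fell by 2.54 on the log2 scale (SE 0.297, edgeR adjusted p = 0.00057), again without overlap, and both genes were called in every one of 18 alternative fits. With the summed B cell markers as a covariate in the fit, the log2 fold changes were -2.70 for H2ac23 and -2.20 for H2ac24, and both were called.

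The other H2A genes that fell were much less abundant. H2ac8 had 6.55, 4.74 and 2.36 FPKM in the knockout libraries, against 8.27, 12.9 and 13.0 FPKM in the WT libraries, and its log2 fold change was -1.33 (SE 0.368, edgeR adjusted p = 0.0436). H2ac4 had 0, 0.69 and 0.87 FPKM in the knockout libraries, against 3.72, 2.88 and 6.11 FPKM in the WT libraries, and its log2 fold change was -2.92 (SE 0.659, edgeR adjusted p = 0.0178). Neither gene overlapped between groups, but the knockout libraries together held only 5.78 expected counts of H2ac4 and 57.0 of H2ac8. The call of H2ac4 was lost without knockout library 3 or WT library 3, and that of H2ac8 without knockout library 2 or 3 or WT library 2 or 3 and with the B cell marker covariate, with log2 fold changes between -3.32 and -2.36 for H2ac4 and between -1.70 and -1.02 for H2ac8 when single libraries were left out.

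H2ac6 went the other way. It had 8.77, 4.65 and 8.10 FPKM in the knockout libraries, against 1.79, 2.24 and 2.03 FPKM in the WT libraries. Every knockout library was above every WT library, and the log2 fold change was 1.76 (SE 0.392, edgeR adjusted p = 0.017). The call was lost without knockout library 1 or 3 or WT library 3, where the change stayed between 1.59 and 1.76, and with the B cell marker covariate.

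The remaining 6 tested H2A genes were not called. H2ac18, the most abundant H2A gene in every knockout library, had 93.4, 79.6 and 107 FPKM there, against 69.5, 82.0 and 49.7 FPKM in the WT libraries; the groups overlapped and the log2 fold change was 0.47 (SE 0.192, edgeR adjusted p = 0.147). H2ac20 had 19.9 ± 1.09 FPKM in knockout and 12.9 ± 6.43 FPKM in WT libraries (SD, n = 3 each), with WT library 2 at 20.3 FPKM beside 8.76 and 9.70 FPKM in the other WT libraries. Without WT library 2, H2ac20 was called higher, with a log2 fold change of 1.07 (edgeR adjusted p = 0.0425), against 0.61 with all libraries. H2ac13, H2ac15, H2ac21 and H2ac22 lay below 14 FPKM in every library, with log2 fold changes of 0.09, 0.69, 1.63 and -0.38.

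**Figure D3:**
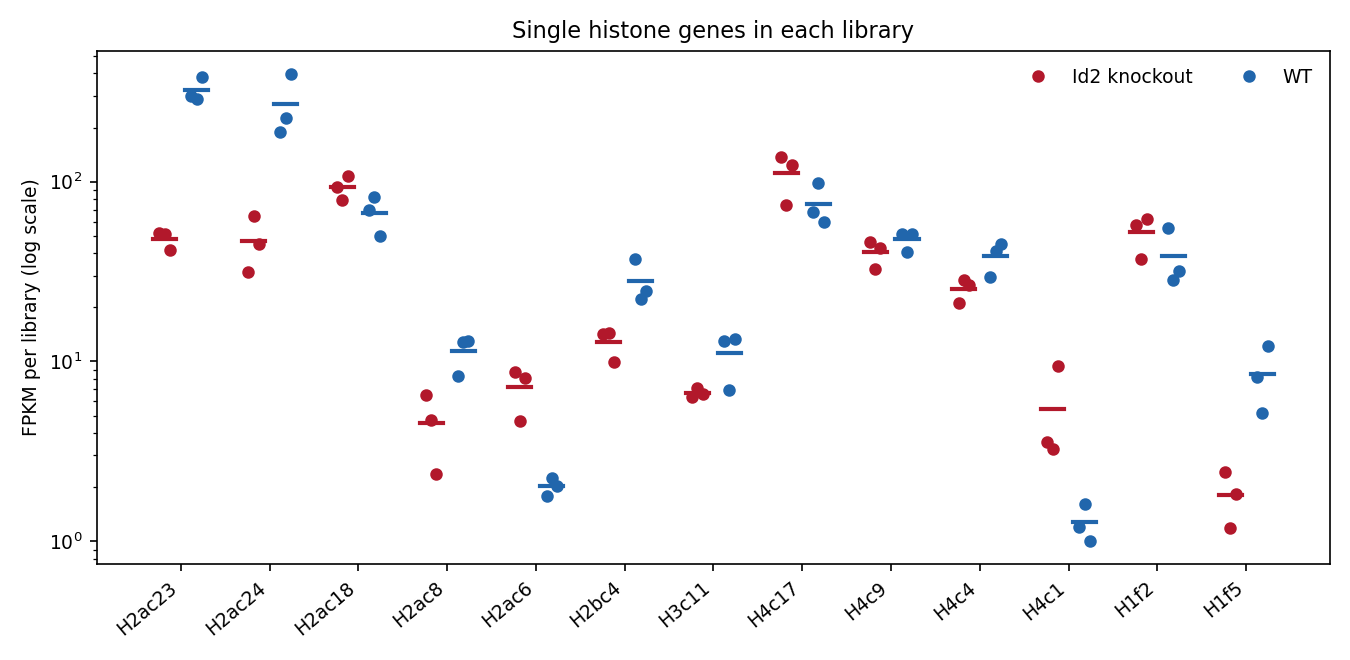
FPKM (vertical axis, log scale) of 13 histone genes in the 3 Id2 knockout libraries (red, left of each pair) and the 3 WT libraries (blue, right); points are libraries and bars are group means. H2ac23, H2ac24, H2ac8, H2bc4, H4c4 and H1f5 lie lower in knockout libraries without overlap, and H2ac6 and H4c1 lie higher without overlap.

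Among the H2B genes 2 of 12 tested fell and none rose. H2bc4, the most abundant H2B gene, had 14.2, 14.4 and 9.96 FPKM in the knockout libraries, against 37.1, 22.3 and 24.8 FPKM in the WT libraries. It fell by 1.12 on the log2 scale (SE 0.27, edgeR adjusted p = 0.0241) and the groups did not overlap, but the call was lost without knockout library 1 or 3 or WT library 1 or 3, with changes between -1.31 and -0.78 over the libraries left out. H2bc12 had 1.03, 0 and 0 FPKM in the knockout libraries, against 1.35, 4.85 and 5.71 FPKM in the WT libraries. Those levels rested on 3.89 expected counts in knockout and 47.3 in WT libraries, and the call (log2 fold change -3.34, SE 0.924, edgeR adjusted p = 0.0431) was lost without knockout library 2 or 3 or WT library 2 or 3, with values from -6.93 to -2.79 over the libraries left out, and with the B cell marker covariate.

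The other 10 tested H2B genes were not called. H2bc18 had 12.6, 8.60 and 12.5 FPKM in the knockout libraries, against 4.09, 8.84 and 6.71 FPKM in the WT libraries, a log2 fold change of 0.77 (SE 0.332, edgeR adjusted p = 0.164). H2bc8 had 7.10 ± 2.69 FPKM in knockout and 5.14 ± 1.72 FPKM in WT libraries (SD, n = 3 each). H2bc11, H2bc9, H2bc14 and H2bc6 had log2 fold changes of -1.05, -0.89, -0.71 and -0.21, and H2bc21, H2bc3, H2bc23 and H2bc15 of 0.24, 0.38, 0.59 and 1.46. All 8 lay below 8 FPKM in every library.

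The H3 genes were lowly expressed. Of 9 tested, 2 fell and none rose, while the summed levels of the class overlapped between groups. H3c3 was listed at 0 in all 3 knockout libraries, against 3.12, 2.54 and 2.77 FPKM in the WT libraries, where it held 32.0 expected counts. It was at least 9.94-fold lower, taking 3 counts over the knockout group as the floor, and edgeR gave an adjusted p of 0.00525; the call held in every alternative that gave a value. H3c15 had 0.58, 0 and 0 FPKM in the knockout libraries, against 1.48, 1.38 and 2.67 FPKM in the WT libraries, and its call (log2 fold change -3.04, SE 0.867, edgeR adjusted p = 0.0488) was lost in 9 of 16 alternatives, among them the fits without knockout library 2 or 3 or any single WT library, with values from -6.25 to -2.50. It was also lost with DESeq2, with the B cell marker covariate and in the fit without the filter (edgeR adjusted p = 0.0653).

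The copies of H3 are so alike that between 66.9% and 95.5% of the 50-base stretches of a coding sequence recur in another histone gene. Over all 59 genes the median was 73.1%, and 57 of the 59 had an expected count in at least 1 library that was not a whole number. How RSEM divided such reads between copies was not tested. Beside the fall of H3c3 and H3c15, H3c7 had 3.04, 2.18 and 3.10 FPKM in the knockout libraries, against 0.22, 1.27 and 0.91 FPKM in the WT libraries. These groups did not overlap, and the log2 fold change of 1.66 (SE 0.478, edgeR adjusted p = 0.05003) missed the threshold; H3c7 was called in 6 alternatives, among them the fits without knockout library 2 or WT library 2. H3c2 had 0.68, 3.17 and 4.18 FPKM in the knockout libraries, against 0, 0 and 1.37 FPKM in the WT libraries, and was not called (edgeR adjusted p = 0.156). H3c11, the most abundant H3 gene in WT libraries, had 6.69 ± 0.374 FPKM in knockout and 11.1 ± 3.59 FPKM in WT libraries (SD, n = 3 each; log2 fold change -0.76, edgeR adjusted p = 0.161). H3c10, H3c1, H3c13 and H3c6 had log2 fold changes of -0.34, 0.07, 0.46 and 0.63.

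The H4 genes held 1 rise and no fall among 9 tested. H4c1 had 3.57, 3.25 and 9.40 FPKM in the knockout libraries, against 1.20, 1.62 and 1.01 FPKM in the WT libraries. The groups did not overlap, knockout library 3 stood highest, and the log2 fold change was 2.02 (SE 0.548, edgeR adjusted p = 0.0402). Without knockout library 3 it was 1.37 (edgeR adjusted p = 0.17), and the call was also lost when any single WT library was left out, with values from 1.37 to 2.28 over the libraries left out, and with the B cell marker covariate.

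The abundant H4 genes did not pass the test. H4c17, the most abundant histone gene in knockout libraries by its mean, though below H2ac18 in knockout library 2, had 137, 74.5 and 124 FPKM there, against 67.5, 98.9 and 59.7 FPKM in the WT libraries (log2 fold change 0.57, SE 0.251, edgeR adjusted p = 0.177). Knockout library 2 lay among the WT libraries; without it H4c17 and H4c14 were called higher, with log2 fold changes of 0.80 and 1.49. H4c9 had 40.4 ± 6.85 FPKM in knockout and 47.8 ± 6.11 FPKM in WT libraries (SD, n = 3 each). H4c4 had 21.1, 28.4 and 26.7 FPKM in the knockout libraries, against 29.4, 41.3 and 45.1 FPKM in the WT libraries, and H4c8 had 11.6, 9.75 and 20.4 FPKM in the knockout libraries, against 7.72, 8.64 and 5.29 FPKM in the WT libraries. Neither overlapped between groups, H4c4 lower and H4c8 higher in knockout, but edgeR gave adjusted p-values of 0.104 and 0.12. In all, 4 histone genes lay wholly above and 10 wholly below in knockout libraries among the 46, beside 15.3% above and 16.8% below of all tested genes (32.1% either way). H4c3, H4c14, H4c2 and H4c12 had log2 fold changes of 0.30, 1.09, -0.44 and -0.05.

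The 5 linker histone genes were all tested, and H1f5 fell. It had 2.43, 1.18 and 1.84 FPKM in the knockout libraries, against 8.17, 5.17 and 12.1 FPKM in the WT libraries. Every knockout library was below every WT library, the log2 fold change was -2.22 (SE 0.415, edgeR adjusted p = 0.00722), and it was called in every alternative fit. H1f5 held 33.0 expected counts in knockout and 165 in WT libraries, and it shared no 50-base stretch of its coding sequence with another histone gene. Its share of the H1 FPKM was between 2.16% and 3.06% in knockout libraries and between 10.1% and 20.2% in WT libraries.

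H1f2 was the main H1 gene in both groups. It had 57.4, 37.1 and 62.2 FPKM in the knockout libraries, against 55.3, 28.4 and 31.7 FPKM in the WT libraries, and the groups overlapped (log2 fold change 0.42, SE 0.286, edgeR adjusted p = 0.38). H4c3 had 43.6, 11.98 and 41.4 FPKM in the knockout libraries, against 35.4, 22.9 and 19.9 FPKM in the WT libraries. For both genes the 3 low libraries were knockout library 2 and WT libraries 2 and 3, the libraries with high B cell markers. The same 3 libraries were the lowest for some other histone genes, such as H1f4, H3c6 and H2bc8, and for the H1 sum. With the B cell marker covariate the log2 fold changes were 0.06 for H1f2 and -0.45 for H4c3, against 0.42 and 0.30 without it, and neither was called. H1f4, H1f3 and H1f1 had log2 fold changes of 0.04, 0.09 and -0.31, with levels below 17 FPKM.

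The 13 genes under the filter held at most 29.9 expected counts over the 6 libraries and reached at most 5.55 FPKM. H2ac10 and H3c4 were listed at 0 in all knockout libraries, against 13.66 and 14.05 expected counts in the WT libraries. With the floor of 3 counts over the group, the knockout sums were at least 4.24-fold and 4.36-fold lower. H2ac10 was also at 0 in WT library 2 and H3c4 in WT library 1, so the groups overlapped. In the fit without the filter neither was called (edgeR adjusted p = 0.109 and 0.105). H2ac11 had 9.43 expected counts in knockout and 20.5 in WT libraries, and H2bc22 had 8.86 in knockout and 16.5 in WT libraries. H2ac7, H2bc13 and H4c11 had 6.80, 9.63 and 7.97 expected counts in knockout libraries and 9.25, 9.12 and 4.12 in WT libraries. The other 6 held under 10 expected counts each.

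Genes that fell and genes that did not could be set beside their hairpin sequences above. Among the 30 tested genes with a readable hairpin, the 3 with 10 or more adenines in the 14 bases before it were H2ac23 and H2ac24 with 13 and H2ac8 with 11, and all 3 fell. The other 4 that fell had between 5 and 9 adenines, the 22 genes that were not called between 3 and 9, and H2ac6 had 7. The threshold of 10 was chosen after the values were seen, H2ac23 and H2ac24 are copies of the same sequence, and no test was made.

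**Figure D4:**
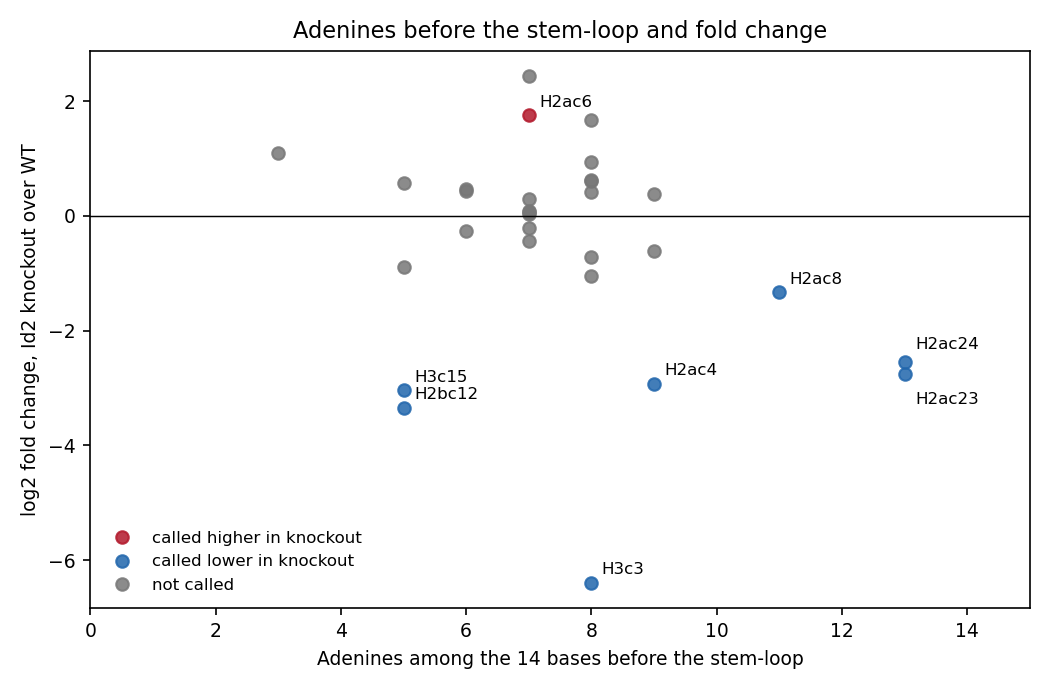
Number of adenines among the 14 bases before the stem-loop (horizontal axis) and log2 fold change, Id2 knockout over WT (vertical axis), for the 30 tested histone genes with a readable stem-loop; each point is a gene, coloured by its edgeR call. The points at 11 and 13 adenines are H2ac8, H2ac24 and H2ac23, and genes called lower also stand at 5, 8 and 9 adenines.

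H2A and H2B genes often stand head to head and share the stretch between their starts. The 59 genes and H4bc24, an H2B gene with another current name, form 12 such pairs, with starts between 176 and 306 bases apart. In 6 of them both genes were tested, and in 4 of these at least 1 gene was called. H2ac6 rose by 1.76 and its neighbour H2bc4, whose start lies 251 bases away, fell by 1.12 on the log2 scale. H2ac23 (-2.76) stood beside H2bc23 (0.59), H2ac24 (-2.54) beside H4bc24 (0.59) and H2ac8 (-1.33) beside H2bc8 (0.44), and none of these H2B neighbours was called. H2bc23 and H4bc24 are themselves copies with identical values in every library. Their 0.59 comes from expected counts. In FPKM each had 2.43 ± 0.772 in knockout and 2.48 ± 0.355 in WT libraries (SD, n = 3 each), so no rise was seen in that unit.

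Promoters of the family are rich in the CCAAT box, the TATA box and the octamer. In the 300-base RefSeq windows around the start, read on both strands, CCAAT stood in 87.0% of 54 histone promoters and in 37.9% of 27025 promoters in all. TATAAA stood in 61.1% of the histone promoters and in 14.2% of all, and ATTTGCAT, the octamer, in 22.2% of the histone promoters and in 1.75% of all. The octamer was found only in H2A genes (6 of 16) and H2B genes (6 of 14) of the 54. The 250 bases before the start are shown for H2ac24, which fell, and H2ac6, which rose, as examples of the 2 directions within a class, with these motifs in capitals (ATTGG and ATGCAAAT are CCAAT and the octamer on the other strand). They lie on the minus strand of GRCm38.p6 at chr13:21833476-21833725 and chr13:23683960-23684209.

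H2ac24: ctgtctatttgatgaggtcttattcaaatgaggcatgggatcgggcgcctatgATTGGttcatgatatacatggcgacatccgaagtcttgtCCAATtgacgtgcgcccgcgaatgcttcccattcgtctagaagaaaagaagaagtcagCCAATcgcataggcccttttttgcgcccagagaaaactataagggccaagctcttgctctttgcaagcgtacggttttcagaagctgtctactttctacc
H2ac6: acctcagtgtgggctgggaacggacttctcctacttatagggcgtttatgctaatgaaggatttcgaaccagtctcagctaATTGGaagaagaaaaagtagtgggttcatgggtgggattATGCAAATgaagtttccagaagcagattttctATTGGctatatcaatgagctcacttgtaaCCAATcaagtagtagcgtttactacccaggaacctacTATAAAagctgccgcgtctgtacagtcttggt

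Both windows hold 3 CCAAT letters. The octamer and TATAAA were in the window of H2ac6 and not in that of H2ac24 or of H2ac23. In H2ac6 they lie in the stretch shared with its head-to-head neighbour H2bc4, which fell. The motifs of the other called genes are not given here. A match is a description of letters, and no binding was measured here.

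Lists of genes related to the family were read from the same fit. Of 45 genes of DNA replication in S phase, all tested, 40 fell and none rose, with a median log2 fold change of -1.12 beside 0.08 for the histone genes. Rrm2, a subunit of the enzyme that makes deoxynucleotides, had 8.62, 20.5 and 7.90 FPKM in the knockout libraries, against 109, 100.1 and 144 FPKM in the WT libraries (log2 fold change -3.28, SE 0.312, edgeR adjusted p = 0.000282). Uhrf1, which helps to copy DNA methylation, fell by 2.19 (SE 0.213, edgeR adjusted p = 0.000283). Of 26 histone chaperones and deposition factors 10 fell and none rose, with a median of -0.34; without knockout library 3 the count was 4 and without WT library 3 it was 6. Asf1b and Chaf1a, which hand H3 and H4 to new DNA, fell by 2.26 and 1.98.

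Of 23 tested factors that make or process histone mRNA, 2 fell and none rose. Slbp, the hairpin's binding protein, had 118, 126 and 101 FPKM in the knockout libraries, against 168, 185 and 161 FPKM in the WT libraries. It fell by 0.59 on the log2 scale (SE 0.107, edgeR adjusted p = 0.0065), and was called in all 18 alternatives. Cpsf2, a subunit of the cleavage complex, fell by 0.51, but its call was lost in 8 of 18 alternatives, among them the fits without knockout library 1 or 3 or WT library 1 or 3. The count of 2 in this list is 8.70% of its genes, beside 8.77% of all genes, and was 1 to 4 when single libraries were left out, with 4 without knockout library 2. Npat, which activates histone transcription, had a log2 fold change of -0.13 (SE 0.124, edgeR adjusted p = 0.547).

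Variant histones are made outside S phase too and mostly carry poly(A) tails. Of 11 tested, H2aw and H2bu2 among them, 5 fell and none rose: H2az1, H2az2, H2ax, Cenpa, the centromeric H3, and H1f0. H2aw and H2bu2, which were not called, carry older histone cluster names and a readable hairpin, as genes of the family do. H2az1 had 524, 517 and 471 FPKM in the knockout libraries, against 842, 1009 and 1001 FPKM in the WT libraries (log2 fold change -0.93, SE 0.101, edgeR adjusted p = 0.000449). H1f0, a linker histone of resting cells, fell by 2.11 (SE 0.272, edgeR adjusted p = 0.000907). H3f3a and H3f3b, which encode H3.3, were not called, with log2 fold changes of 0.05 and -0.07.

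Other RNAs that carry no poly(A) tail were described because histone messages typically share that trait. Of 18 tested, 4 rose and none fell, with a median of 0.74. Rn7sk, a regulator of RNA polymerase II, had 63.0, 69.3 and 97.0 FPKM in the knockout libraries, against 38.7, 31.2 and 29.5 FPKM in the WT libraries (log2 fold change 1.19, SE 0.223, edgeR adjusted p = 0.00736). Rnu2-10, a U2 spliceosomal RNA, rose by 1.25 (SE 0.249, edgeR adjusted p = 0.0101), and Rnu3b1 and Rnu3b3, copies with identical values, by 1.40. The list summed to 1754, 1888 and 3212 FPKM in the knockout libraries, against 1268, 1806 and 1721 FPKM in the WT libraries, so knockout library 3 stood apart, as it did for H4c1. Without knockout library 3 or WT library 3 only 1 gene of the list was called higher. The part of this difference between libraries in the histone levels was not tested.

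**Figure D5:**
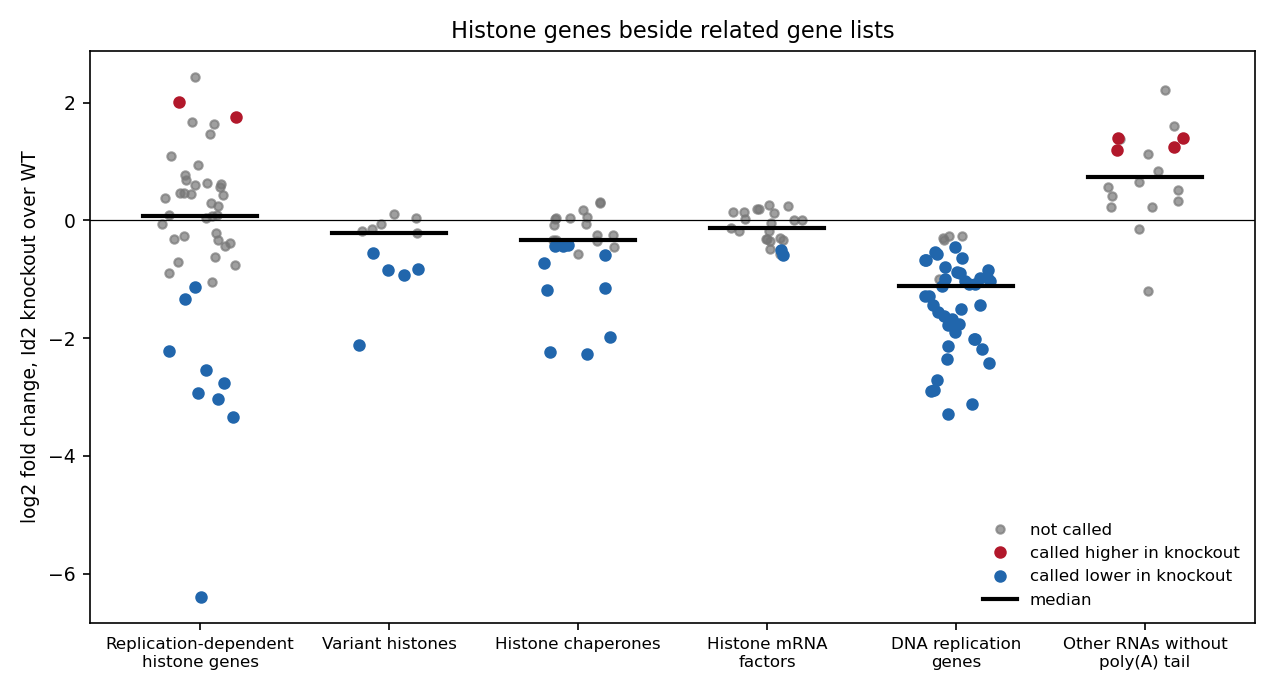
Log2 fold change, Id2 knockout over WT (vertical axis), of each tested gene in the histone family and in 5 related lists; points are genes, coloured by their edgeR call, and bars are medians. The medians are 0.08 for the histone genes, -1.12 for DNA replication genes and 0.74 for other RNAs without a poly(A) tail, and the histone genes spread to both sides of 0.

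A few more genes carry an older histone cluster name although their current symbol is not of the family. Of these 6, 4 were tested and none was called: H2aw, H2bu2, H4bc24 and H4f16, with log2 fold changes of 0.11, -0.21, 0.59 and 0.65. H2aw was listed at 77.5, 73.3 and 78.4 FPKM in the knockout libraries, against 66.3, 75.8 and 67.7 FPKM in the WT libraries. With these genes added, the H2A sum was 314 ± 12.2 FPKM in knockout and 778 ± 150 FPKM in WT libraries (SD, n = 3 each), still without overlap. The H2B sum was then 67.4, 47.8 and 62.4 FPKM in the knockout libraries, against 84.8, 68.0 and 75.9 FPKM in the WT libraries, and no longer overlapped, while the H4 sum did.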

How the data were processed

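RNA-seq of 3 knockout and 3 WT samples was used. Per the submitters' processing notes, the authors worked with RSEM, Bowtie2 and CASAVA on mm10; no version or strand setting is stated there. Per the file headers, the deposited tables hold per gene an expected count and an FPKM value, scaled for transcript length and for library size. A gene missing from a table was taken as 0. Tables were joined by NCBI gene number with pandas 2.3.3 in Python 3.11.15; symbols, locations and promoters came from RefSeq (GRCm38.p6). Histone genes are short, near-identical copies, so RSEM divided many of their reads: between 90.0% and 97.8% of their listed expected counts were not whole within 0.005, against 25.0% to 26.2% over all genes.

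Expected counts were rounded, scaled by TMM and tested two-sided with edgeR 4.0.16 (quasi-likelihood F test, R 4.3.3) on the 10890 genes with at least 1 FPKM in at least 3 libraries, with Benjamini-Hochberg adjustment. Sums have no test. All tested histone genes are named. Of each related list up to 2 called genes per direction with the smallest p are named. H3f3a, H3f3b, Npat, Rnu3b1, Rnu3b3, H2az2, H2ax, Cenpa, Pax5, Flt3, Xcr1, Sdc1, Xbp1, Irf4 and Mzb1 were added after their values were seen. The genes and lists were chosen with earlier results of these data known. On simulated data for this comparison (10890 genes, 200 changed), edgeR recovered 90% of 2-fold and 100% of 4-fold changes, with 10 false calls among 200. The changed genes had a mean of at least 10 counts per library, and all genes shared the same dispersion. These rates therefore do not apply to the many histone genes with fewer counts. No libraries were duplicates (their counts differed by 5.67 to 18.8 in chi-square over its degrees of freedom). Same-numbered libraries of the 2 groups correlated at 0.118, 0.075 and -0.030, and libraries of unlike number at -0.187 to 0.135. Pairing by number was therefore not seen, but these values cannot exclude it. Alternatives were DESeq2 1.42.0 and its size factors, limma 3.58.1 on log2(FPKM + 1) with pseudocounts of 0.5 and 0.1, other filters, a replicate block, a B cell marker covariate and single libraries left out. Figures were drawn with matplotlib 3.10.9.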

Additional observations from a re-analysis of the deposited data

How the results depend on the processing

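H1f5, H2ac23, H2ac24 and H3c3 were called lower in every alternative that gave a value, and no named gene that was called changed direction. H3c3 passed the filter through the WT libraries only and had a value in 16 of 18 alternatives. The count of histone genes called higher, 2 with all libraries, was 0 to 5 when single libraries were left out, 0 of 19 tested at an FPKM minimum of 5, 0 with the B cell marker covariate and 1 with the replicate block. The count called lower, 9 with all libraries, was 4 to 8 when single libraries were left out, 5 at an FPKM minimum of 5, 6 with the B cell marker covariate and 6 with the replicate block. The block, whose numbers are not known to pair the samples, ended the calls of H2ac8, H2bc12, H3c15, H4c1 and Cpsf2. Over all genes, 342 were called higher and 955 lower; leaving out single libraries gave 84 to 480 higher and 517 to 1082 lower, a minimum log2 fold change of 0.5 gave 216 higher, and the replicate block gave 295 higher and 888 lower. The cause of these shifts was not tested, beside the fewer samples or genes that the settings leave. The log2 ratio of the H2A sum was -1.03 without its most abundant gene, H2ac23, and 0.31 without H2ac23 and H2ac24, against -1.58 in full. That of all 59 genes was -0.37 without H2ac23 and 0.15 without both, against -0.77. The setting without both genes was chosen after seeing the data. Low counts limit H2ac4, H2bc12, H3c3 and H3c15, which rest on under 6 counts in the knockout libraries.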
